A study of Mus musculus with 24 samples.

Results

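Transcripts of 10 genes of the integrated stress response were followed across 24 mouse libraries. They were the regulators *Atf4*, *Atf5*, *Ddit3* and *Trib3*, the glutathione-degrading enzyme *Chac1*, the amino acid enzymes *Asns*, *Psat1* and *Phgdh*, and the mitochondrial folate enzymes *Shmt2* and *Mthfd2*. The members were a named set, matched by symbol to the 56748 genes of the deposited table, and each of the 10 symbols was found. *Ddit3* had a second row with a different identifier, which held 0 counts in all 24 libraries and was left out.

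The study raised human PRDM13, a zinc finger transcription regulator linked to amacrine cell development, in the adult mouse eye. PRDM13-OE mice carried 1 copy of a construct at Rosa26 in the C57BL/6J background, in which the ubiquitous EF-1α promoter drove the reverse tetracycline transactivator and TRE3G drove tagged human PRDM13. Wildtype littermates lacked it. Mice of each genotype were left untreated or received doxycycline (dox) at 2 mg/mL with 10% sucrose in drinking water for 72 hours, from postnatal day 28. Neural retina and the remaining eye cup (retinal pigment epithelium (RPE), choroid and sclera) were taken from the same 12 mice, which gave 3 libraries in each of 8 groups. Because sucrose was given with dox, the 2 agents cannot be told apart, and the human transcript was not analysed here.

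In the integrated stress response, kinases that sense unfolded protein, amino acid shortage, heme shortage or double-stranded RNA phosphorylate the translation factor eIF2α, which lowers general protein synthesis and favours translation of ATF4. ATF4 then raises transcription of genes for amino acid synthesis and uptake, tRNA charging and redox defence. Mitochondrial stress reaches the same pathway, and doxycycline is known to block translation on mitochondrial ribosomes, so these genes are common readouts of dox itself. ATF4 is controlled largely at translation, which transcript counts do not measure.

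Promoter sequences are shown for the members whose start region holds the core of the ATF4 element, and for *Psat1*, the member whose retinal difference passed under most of the settings tried. The motif searched was TGATGNAA, or TTNCATCA on the other strand, in RefSeq windows of 250 bases before and 50 after each start. RefSeq's table is built on GRCm38.p6, and each window was placed on GRCm39 by its only exact match. Of all 32851 windows 3.97% held a match. Among 12 windows of the 10 members 3 held one, in *Asns*, *Chac1* and *Trib3*. The 250 bases before the start follow for *Asns* (chr6:7693210-7693459, minus strand), *Chac1* (chr2:119181473-119181722, plus strand) and *Psat1* (chr19:15902424-15902673, minus strand), with 30 bases around the match for *Trib3* (chr2:152185948-152185977, minus strand). Capitals mark the match.
Asns: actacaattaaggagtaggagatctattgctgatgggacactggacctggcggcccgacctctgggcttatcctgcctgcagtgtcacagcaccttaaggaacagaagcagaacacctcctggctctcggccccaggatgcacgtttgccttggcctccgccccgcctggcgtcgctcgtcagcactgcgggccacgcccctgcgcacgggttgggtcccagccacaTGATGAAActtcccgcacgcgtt
Chac1: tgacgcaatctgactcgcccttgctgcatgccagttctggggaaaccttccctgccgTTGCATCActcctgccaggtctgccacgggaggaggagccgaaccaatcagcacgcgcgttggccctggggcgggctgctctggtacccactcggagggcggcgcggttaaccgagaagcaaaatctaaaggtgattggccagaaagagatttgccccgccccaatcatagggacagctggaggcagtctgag
Trib3: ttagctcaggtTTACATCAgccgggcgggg
Psat1: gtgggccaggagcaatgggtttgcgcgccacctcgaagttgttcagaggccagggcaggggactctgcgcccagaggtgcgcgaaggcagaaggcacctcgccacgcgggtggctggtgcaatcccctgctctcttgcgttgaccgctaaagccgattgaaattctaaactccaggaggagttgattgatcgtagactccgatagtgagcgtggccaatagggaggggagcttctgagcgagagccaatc
The match lay 23 bases before the start of *Asns* and 193 before that of *Chac1*, while the match of *Trib3* began 15 bases after its start. *Psat1* has a pair of RefSeq starts, 22278 (the one shown) and 22715 bases inside the gene span of the deposited table, and neither window holds a match. Of the other stress genes followed below, 7 of the 17 with a window in the list of further ATF4 targets held a match (*Atf3*, *Fgf21*, *Jdp2*, *Nupr1*, *Pck2*, *Pycr1* and *Vldlr*), as did 5 of 8 tRNA synthetases, 2 of 7 amino acid transporters and 1 of 10 endoplasmic reticulum chaperones. None did among 11 genes of eIF2 kinases and factors, 9 serine and one-carbon neighbours and 9 mitochondrial chaperones and proteases. A match is a run of letters and not a measured binding site.

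Between 15825059 and 24908314 reads per library were counted on genes. The marker genes set the tissues apart: 12 RPE and pigment genes summed to 614 to 1064 CPM in retinas and 9957 to 57929 in eye cups. CPM is the library-size-scaled read count, here with TMM factors over all 24 libraries. Eye cups also held photoreceptor RNA, with 12 rod genes at 3073 to 52656 CPM against 50638 to 75879.9 in retinas, and skeletal muscle RNA, at 251 to 2569.9 CPM against 4.20 to 45.8. Lens crystallins (14 genes) summed to 10614, 4428 and 111 CPM in wildtype dox retinas 1, 2 and 3, and to 3.33 to 837 in the other 9 retinas, highest in untreated wildtype retina 1. The comparisons of 1 other group with wildtype dox retinas were therefore also made without the lens-rich retinas 1 and 2. This leaves wildtype dox with 1 library, assumed to vary like the other group. The genotype by dox interaction was not refitted without both. Nothing in the labels names a sequencing batch. The p-values compare single mice of the labels, 3 a group.

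Length-scaled levels were set by the deposited FPKM, given here as mean ± SD over the 12 libraries of a tissue. In the retina *Atf4* stood at 88.0 ± 9.29 FPKM, above every library of every other member. The other levels were 20.2 ± 1.79 for *Ddit3*, 18.5 ± 2.11 for *Asns*, 14.8 ± 1.26 for *Shmt2*, 13.9 ± 4.44 for *Atf5* and 11.1 ± 2.39 for *Psat1*. Below them came *Phgdh* at 5.68 ± 3.45, *Chac1* at 3.06 ± 0.527, *Mthfd2* at 2.49 ± 0.184 and *Trib3* at 2.26 ± 0.392 FPKM. After *Atf4*, each member's libraries overlapped those of the next in this order. In the eye cup *Phgdh* led at 194 ± 90.9 FPKM, with its lowest library above the highest of *Atf4* (53.0 ± 9.66). *Atf5* (42.0 ± 14.4), *Psat1* (20.4 ± 5.91), *Chac1* (19.6 ± 15.3), *Ddit3* (16.9 ± 3.52), *Shmt2* (13.4 ± 1.75), *Asns* (6.28 ± 4.09), *Trib3* (2.28 ± 0.545) and *Mthfd2* (1.73 ± 0.441) followed, and each overlapped its neighbour. The 2 least even genes of the eye cup were *Chac1*, whose highest library held 80.9 times the CPM of its lowest, and *Asns*, at 49.5 times.

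**Figure D1:**
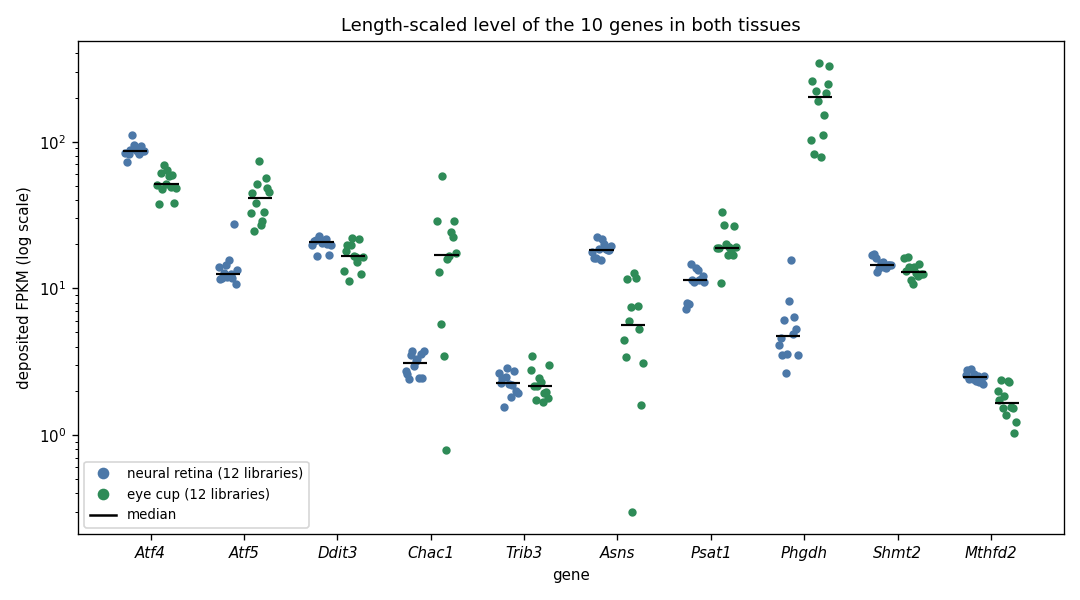
Deposited FPKM (log scale) of the 10 genes, 1 point for each of the 12 neural retina and 12 eye cup libraries, with the median as a line. *Phgdh* lies at 2.65 to 15.5 FPKM in retinas and 79.0 to 344 in eye cups, the widest gap between the tissues.

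In the retina, the comparison of PRDM13-OE with wildtype mice, both on dox, asks what human PRDM13 changed. The serine synthesis gene *Psat1* fell, *Phgdh* and *Asns* were also lower and *Shmt2* was slightly higher. *Atf4*, *Atf5*, *Ddit3*, *Trib3*, *Chac1* and *Mthfd2* did not pass the test. With edgeR, 4 of the 10 members had an adjusted p-value under 0.05 (3 lower, 1 higher), where 12.5% of the 20560 genes tested did. With the study's cutoff, a log2 fold change past 1 as well, 1 of 10 was called (*Phgdh*), against 2.41% of all genes. The median log2 fold change was -0.071 over the members and 0.0056 over all genes.

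*Psat1* encodes phosphoserine aminotransferase, the second enzyme of serine synthesis (chr19:15882042-15924701, minus strand). In PRDM13-OE dox retinas it was 31.8, 35.0 and 34.6 CPM in mice 1, 2 and 3, and in wildtype dox retinas 59.8, 57.4 and 48.8 CPM. Untreated retinas held 63.0, 49.8 and 48.2 CPM in PRDM13-OE and 50.4, 54.0 and 47.7 CPM in wildtype mice. The PRDM13-OE dox retinas lay below all other 9 retinas without overlap. Against wildtype dox the log2 fold change was -0.71 (SE 0.078, adjusted p = 0.000112), a fall by 39.0%, with a 95% interval of -0.88 to -0.54. Without the lens-rich retinas it was -0.54 (adjusted p = 0.00149). With the crystallin sum as a covariate over all 12 retinas it was -0.49 (adjusted p = 0.115) and no longer passed.

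*Phgdh* encodes phosphoglycerate dehydrogenase, the first enzyme of the same route (chr3:98220486-98247306, minus strand). It was 10.6, 11.8 and 9.02 CPM in PRDM13-OE dox retinas and 20.6, 38.9 and 12.2 CPM in wildtype dox retinas 1, 2 and 3. Untreated retinas held 15.4, 6.74 and 9.16 CPM in PRDM13-OE and 16.1, 13.6 and 8.80 CPM in wildtype mice. The lens-rich wildtype dox retinas 1 and 2 were the highest, and retina 2 stood well above the rest. The log2 fold change of -1.20 (SE 0.31, adjusted p = 0.0269) became -0.23 (adjusted p = 0.461) without them and 0.18 (adjusted p = 0.908) with the crystallin covariate. Of the 4 retinas with the most *Phgdh* 3 were among the 4 with the largest crystallin sums, and of the 4 with the least 2 were among the 4 with the smallest. By likeness over the 12 retinas (Pearson r of log2(CPM + 1), a description), the genes closest to *Phgdh* of 14719 were *Col4a3* (0.944), *Ezr* (0.941) and *Csrp2* (0.931).

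*Asns*, which makes asparagine, was 49.8, 45.7 and 45.9 CPM in PRDM13-OE dox and 60.5, 55.6 and 50.7 CPM in wildtype dox retinas, without overlap. Its log2 fold change was -0.24 (SE 0.070, adjusted p = 0.0466), and -0.11 (adjusted p = 0.515) without the lens-rich retinas. It was at 61.7, 51.7 and 44.0 CPM in untreated PRDM13-OE retinas, a range that spans the other groups.

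*Shmt2*, the mitochondrial enzyme that turns serine into glycine and a one-carbon unit, was the only member to pass as higher. It was 54.4, 54.8 and 51.9 CPM in PRDM13-OE dox retinas against 47.6, 44.2 and 42.9 CPM in wildtype dox, 40.8, 43.9 and 47.7 in untreated PRDM13-OE and 45.6, 46.4 and 45.4 in untreated wildtype retinas, again without overlap. The log2 fold change was 0.26 (SE 0.060, adjusted p = 0.0159), and 0.32 (adjusted p = 0.0351) without the lens-rich retinas. With the crystallin covariate it was 0.37 (adjusted p = 0.114). *Mthfd2*, which carries the unit on through mitochondrial folate, was 9.23, 9.97 and 8.77 CPM against 8.21, 8.96 and 8.07 CPM, and its log2 fold change of 0.15 (SE 0.12, adjusted p = 0.471) did not pass.

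*Atf4* itself was 206, 177 and 201 CPM in PRDM13-OE dox and 216, 206 and 194 CPM in wildtype dox retinas. These overlapped, with a log2 fold change of -0.080 (SE 0.064, adjusted p = 0.470) and an interval of -0.22 to 0.059. *Ddit3* encodes CHOP, a factor tied to cell death under lasting stress, and was 35.0, 37.2 and 37.7 against 35.3, 36.1 and 37.2 CPM, with an interval of -0.12 to 0.16. *Atf5*, a relative of ATF4 linked to the mitochondrial unfolded protein response, was 28.8, 23.8 and 24.2 against 31.4, 25.1 and 23.6 CPM. Its interval was -0.30 to 0.18. *Chac1*, which degrades glutathione, was 4.59, 4.42 and 4.08 against 5.35, 5.48 and 4.01 CPM (interval -0.56 to 0.19). *Trib3*, a pseudokinase that restrains ATF4 and CHOP, was 5.86, 4.98 and 5.39 against 4.81, 3.87 and 4.68 CPM (interval -0.067 to 0.63). The intervals of *Atf4*, *Ddit3* and *Atf5* lie within -0.30 to 0.18, so changes smaller than that are not shown to be absent. The log2 fold changes without the lens-rich retinas were -0.0048 for *Atf4*, -0.029 for *Ddit3*, 0.11 for *Atf5*, 0.11 for *Chac1*, 0.20 for *Trib3* and 0.20 for *Mthfd2*, none past the test.

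**Figure D2:**
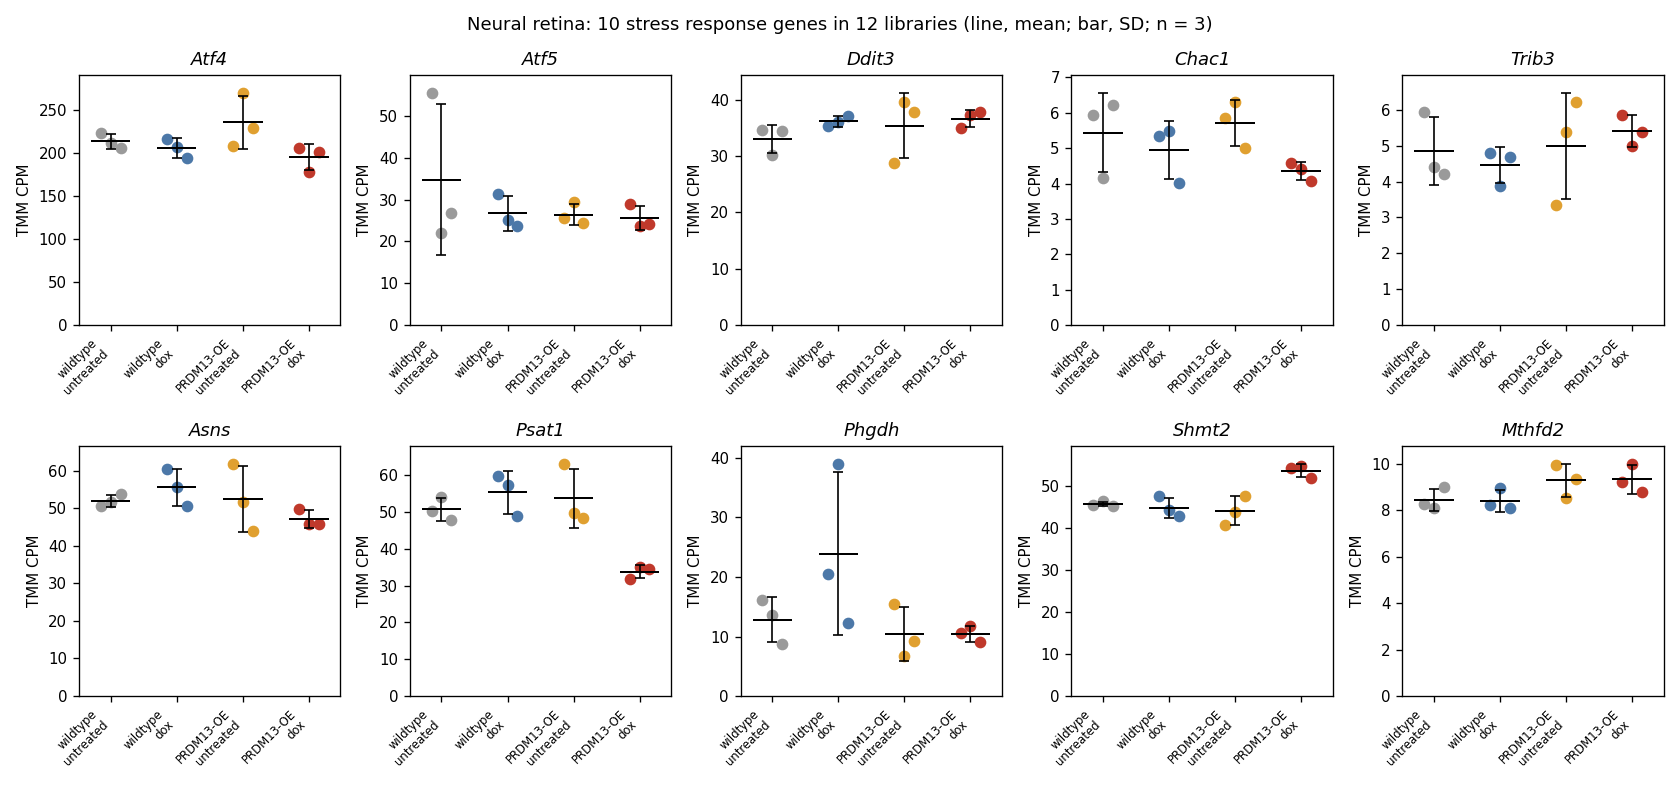
TMM CPM of the 10 genes in the 12 neural retinas by group, 1 point a library, with the mean as a line and the SD as a bar (n = 3). The PRDM13-OE dox retinas lie below the other 9 for *Psat1* and above them for *Shmt2*, and wildtype dox retinas 1 and 2 lie highest for *Phgdh*.

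Markers of several cell types moved with these differences. The 12 rod genes summed to 50638 to 56935 CPM in PRDM13-OE dox retinas and 69667 to 71823 in wildtype dox retinas, and 10 cone genes to 765 to 832 against 1418 to 1477. The sums were 144 to 171 against 305 to 322 CPM for 8 endothelial genes and 0.663 to 1.11 against 29.3 to 73.0 for 5 red blood cell genes. Amacrine genes (8) summed to 1702 to 1760.3 against 1921 to 2068 CPM, bipolar genes (8) to 1240.1 to 1355 against 1429.7 to 1511, ganglion cell genes (8) to 1086 to 1150.2 against 1155 to 1363 and RPE and pigment genes (12) to 616 to 638 against 823 to 877. Fibroblast and scleral genes (8) summed to 42.0 to 142 against 187 to 254 CPM. These 5 sums did not overlap either, while microglial genes (8) did, at 81.6 to 90.4 against 72.8 to 83.8 CPM. Müller glia genes (10) summed to 7445 to 7759.6 against 7826 to 7881 CPM, and 8 of the 10 passed the test, 6 lower. The 3 PRDM13-OE dox retinas had both the least *Psat1* and the smallest rod sums of the 12. Their cone, endothelial, red blood cell and amacrine sums were also the smallest of the 12, so this match was not particular to rods. Of the 4 retinas with the most *Psat1* 3 were among the 4 with the largest rod sums. The part of these shifts in the differences of *Psat1* and *Shmt2* was not tested, and in whole tissue fewer cells of a type and less RNA per cell cannot be told apart.

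**Figure D3:**
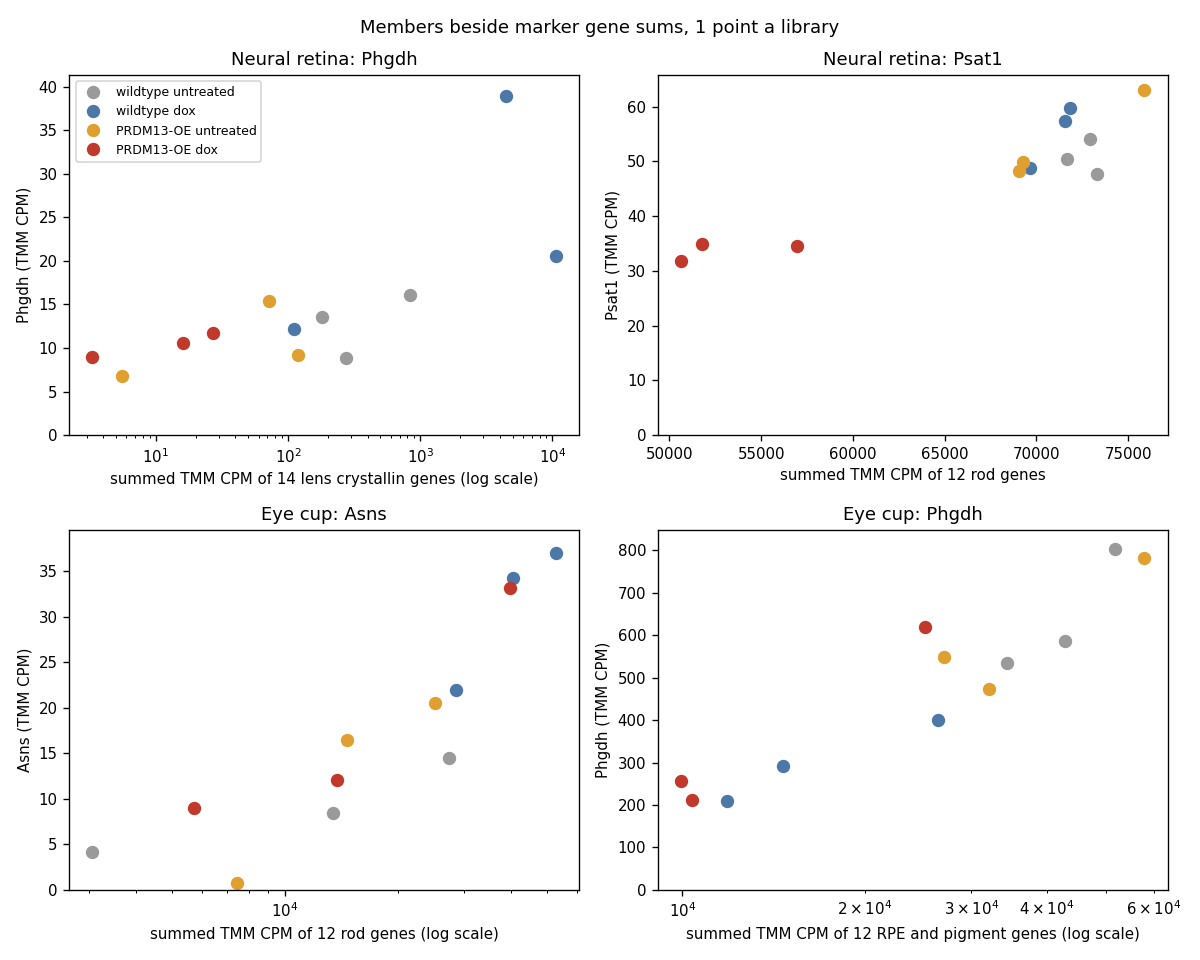
Members in TMM CPM against summed TMM CPM of marker genes, 1 point a library coloured by group: retinal *Phgdh* against lens crystallins and *Psat1* against rod genes, eye cup *Asns* against rod genes and *Phgdh* against RPE and pigment genes. The red PRDM13-OE dox retinas form a group of their own at low *Psat1* and low rod sums.

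In the comparison of dox with no treatment in wildtype retinas, none of the 10 members passed with edgeR or DESeq2, and 0.00485% of all genes were called. At an unadjusted p-value under 0.05 stood 1 member, *Phgdh*, at a log2 fold change of 0.90 (SE 0.34, adjusted p = 0.446). Without the lens-rich retinas it was -0.072 (adjusted p = 0.998). For *Atf4* the log2 fold change was -0.054 (SE 0.061, adjusted p = 0.843), with an interval of -0.19 to 0.080. The interval was -0.033 to 0.29 for *Ddit3*, -0.063 to 0.26 for *Asns*, -0.17 to 0.11 for *Shmt2* and -0.058 to 0.31 for *Psat1*. *Atf5* was 55.3, 22.1 and 26.9 CPM in untreated and 31.4, 25.1 and 23.6 in dox wildtype retinas, high only in the first untreated retina, with a log2 fold change of -0.38 (SE 0.27, adjusted p = 0.722), which was 0.13 (adjusted p = 0.852) without it.

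Within PRDM13-OE mice, dox retinas were again lower in *Psat1*, with a log2 fold change of -0.66 (SE 0.098, adjusted p = 0.00111), and higher in *Shmt2*, at 0.28 (SE 0.075, adjusted p = 0.0483). These 2 of 10 members passed, where 5.00% of genes did, and none was called with the fold cutoff, against 1.04% of genes. *Shmt2* no longer passed on leaving out any 1 of 5 of these 6 retinas, although its log2 fold change stayed at 0.23 to 0.34. This comparison shares its dox libraries with the one above and is no independent support. *Phgdh* had a log2 fold change of 0.0086 (SE 0.23, adjusted p = 0.992) here, in libraries with at most 118 CPM of crystallins. *Atf4* stood at 208, 269 and 229 CPM in untreated and 206, 177 and 201 CPM in dox PRDM13-OE retinas, without overlap, and its log2 fold change of -0.27 (SE 0.089, adjusted p = 0.128) did not pass with edgeR but did with DESeq2 (-0.27, adjusted p = 0.0322). *Chac1* followed the same order, 5.84, 6.30 and 5.01 against 4.59, 4.42 and 4.08 CPM, at -0.39 (SE 0.17, adjusted p = 0.279). Untreated PRDM13-OE and untreated wildtype retinas had no member past the test with edgeR or DESeq2, and none reached an unadjusted p-value under 0.05. The share of genes called was 0%.

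The test of the genotype by dox interaction asks whether dox acted differently in carriers. *Psat1* was the 1 member of 10 to pass, where 3.03% of genes did, with an interaction of -0.79 (SE 0.14, adjusted p = 0.00244) on the log2 scale. It held in all 20 alternatives run, between -0.87 and -0.66, but leaving out both lens-rich retinas was not among them. No member was called past the fold cutoff, against 0.870% of genes. For *Phgdh* the interaction was -0.89 (SE 0.48, adjusted p = 0.421) and for *Shmt2* 0.32 (SE 0.096, adjusted p = 0.0972), and neither passed. *Shmt2* did pass in 2 of 20 alternatives, at 0.39 (adjusted p = 0.0455) with library size alone and 0.38 (adjusted p = 0.0395) without untreated PRDM13-OE retina 3, and *Phgdh* in 1 of 20, at -0.89 (adjusted p = 2.55e-05) with no filter.

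Other genes of the pathway were read from 8 lists of 104 genes, 103 of them tested in the retina. Against wildtype dox, 20 passed in PRDM13-OE dox retinas (19.4%, 5 higher and 15 lower), where 12.5% of all genes did. Without the lens-rich retinas 18 passed, 9 higher and 9 lower, against 9.96% of genes. With the crystallin covariate over all 12 retinas 6 passed, 2 higher and 4 lower, against 2.48% of genes. Of 14 genes for eIF2 kinases, eIF2 and its exchange factor, mitochondrial signalling and eIF2 phosphatases, none passed with edgeR, with 2 at an unadjusted p-value under 0.05 (all genes, 26.6%) and 0 passing with DESeq2 (all genes, 12.1%). Of 12 tRNA synthetases none passed either, with 4 at an unadjusted p-value under 0.05 (all genes, 26.6%) and 0 passing with DESeq2 (all genes, 12.1%).

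Among 12 serine and one-carbon neighbours 3 fell and none rose, where 12.5% of all genes passed. *Gldc* encodes the glycine decarboxylase of the mitochondrial glycine cleavage system, which consumes the glycine that SHMT2 makes. It was 11.8, 19.2 and 21.6 CPM in PRDM13-OE dox retinas against 58.5, 56.4 and 57.4 in wildtype dox, 60.7, 39.7 and 46.5 in untreated PRDM13-OE and 46.3, 43.8 and 44.2 in untreated wildtype retinas. The PRDM13-OE dox retinas lay below all others (log2 fold change -1.71, SE 0.15, adjusted p = 2.52e-05), with -1.71 (adjusted p = 7.08e-06) without the lens-rich retinas and -1.61 (adjusted p = 0.00169) with the crystallin covariate. The fall was also called within PRDM13-OE mice (log2 fold change -1.47, SE 0.19, adjusted p = 0.000398) and as an interaction (log2 fold change -1.83, SE 0.22, adjusted p = 9.38e-05). *Mthfd1* (-0.30) and *Mthfd1l* (-0.33), the other 2 that fell, were -0.31 (adjusted p = 0.121) and -0.18 (adjusted p = 0.489) without the lens-rich retinas, so *Mthfd1* kept its size with a larger SE and did not pass.

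Of 10 amino acid transporters 2 fell, where 12.5% of all genes passed. *Slc7a11*, the cystine importer, was 2.76, 6.78 and 6.40 against 11.2, 17.1 and 11.4 CPM (log2 fold change -1.31, SE 0.27, adjusted p = 0.00729), and -1.10 (adjusted p = 0.0247) without the lens-rich retinas. With the crystallin covariate it was -0.59 (adjusted p = 0.669). *Slc1a4*, a neutral amino acid exchanger, fell by 0.42 on the log2 scale, and was -0.28 (adjusted p = 0.186) without them. Of 18 further ATF4 target and stress genes 2 fell, where 12.5% of all genes passed. *Nupr1*, a stress coregulator, was called (log2 fold change -1.73, SE 0.50, adjusted p = 0.0426) at 5.64, 5.60 and 5.59 against 27.1, 25.3 and 3.56 CPM, with only the lens-rich wildtype retinas high, and was 0.65 (adjusted p = 0.112) without them. *Vldlr*, a lipoprotein receptor, stood at log2 fold change -0.33, SE 0.063, adjusted p = 0.00481, at -0.37 (adjusted p = 0.00195) without the lens-rich retinas and at -0.45 (adjusted p = 0.0699) with the crystallin covariate.

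Endoplasmic reticulum chaperones and their regulators fell most often of the 8 lists, 7 of 12, where 12.5% of all genes passed. The list median was -0.19 on the log2 scale. *Hspa5*, the main chaperone BiP, was 263, 254 and 258 CPM in PRDM13-OE dox retinas against 341, 385 and 409.8 in wildtype dox (log2 fold change -0.55, SE 0.064, adjusted p = 0.000169). Untreated retinas ranged widely, at 284, 487 and 334 in PRDM13-OE and 321, 283 and 380.1 CPM in wildtype mice. *Xbp1* (-0.45), *Calr* (-0.34), *Sdf2l1* (-0.73), *Hsp90b1* (-0.19), *Hyou1* (-0.19) and *Pdia6* (-0.19) were the others, as log2 fold changes. Without the lens-rich retinas *Hspa5*, *Xbp1*, *Calr* and *Sdf2l1* still passed. *Hsp90b1* at -0.20 (adjusted p = 0.0674), *Hyou1* at -0.23 (adjusted p = 0.0587) and *Pdia6* at -0.15 (adjusted p = 0.207) did not pass there, with fewer libraries and folds of about the same size. With the crystallin covariate *Hspa5* at -0.98 (adjusted p = 0.0120) and *Sdf2l1* at -1.37 (adjusted p = 0.00841) passed, while *Xbp1* at -0.70 (adjusted p = 0.132) and *Calr* at -0.53 (adjusted p = 0.176) were lower by more but did not pass, nor did the other 3. Within PRDM13-OE mice 1 of the 12 passed (all genes, 5.00%), *Hsp90b1* (log2 fold change -0.22, SE 0.058, adjusted p = 0.0435). *Sdf2l1*, a cofactor of BiP, was called in the interaction (log2 fold change -1.29, SE 0.29, adjusted p = 0.0175).

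Of 12 mitochondrial chaperones and proteases 1 rose and 1 fell, where 12.5% of all genes passed. *Spg7*, a subunit of an inner membrane protease, was 82.7, 82.8 and 82.8 CPM in PRDM13-OE dox retinas and 138, 128 and 129 in wildtype dox retinas, with 126, 124 and 141 and 136, 133 and 145 in untreated PRDM13-OE and wildtype retinas. It fell against wildtype dox (log2 fold change -0.67, SE 0.053, adjusted p = 7.77e-06), within PRDM13-OE mice (log2 fold change -0.65, SE 0.065, adjusted p = 4.79e-05) and as an interaction (log2 fold change -0.59, SE 0.087, adjusted p = 0.000590). *Htra2*, a protease of the intermembrane space, rose (log2 fold change 0.58, SE 0.084, adjusted p = 0.000831). Without the lens-rich retinas *Spg7* was -0.65 (adjusted p = 8.45e-06) and *Htra2* 0.52 (adjusted p = 0.00957), and with the crystallin covariate they were -0.58 (adjusted p = 0.00362) and 0.47 (adjusted p = 0.296). The chaperones *Hspd1*, *Hspe1* and *Hspa9* and the proteases *Lonp1* and *Clpp*, the usual readouts of mitochondrial protein stress, did not pass. Of 13 mitochondrially encoded mRNAs 4 rose (all genes passing, 12.5%), *mt-Co2* (0.90), *mt-Nd4l* (0.59), *mt-Co3* (0.50) and *mt-Atp6* (0.48), as log2 fold changes. These were, without the lens-rich retinas, 1.35 (adjusted p = 0.00243), 0.77 (adjusted p = 0.0699), 0.91 (adjusted p = 0.000390) and 0.71 (adjusted p = 0.000456), in the same order. With the crystallin covariate *mt-Co2* at 1.95 (adjusted p = 0.0109) and *mt-Atp6* at 0.83 (adjusted p = 0.0388) passed, and *mt-Nd4l* at 0.74 (adjusted p = 0.327) and *mt-Co3* at 0.77 (adjusted p = 0.110) did not. Within PRDM13-OE mice 0 of the 13 passed with edgeR, with 2 at an unadjusted p-value under 0.05 (all genes, 15.6%) and 0 passing with DESeq2 (all genes, 5.68%), and the list median was 0.043. Dox in wildtype retinas gave 0 of 103 pathway genes with edgeR, with 13 at an unadjusted p-value under 0.05 (all genes, 9.32%) and 2 passing with DESeq2 (all genes, 0.451%). Untreated carriers against untreated wildtype retinas gave 0 of 103, with 6 at an unadjusted p-value under 0.05 (all genes, 3.76%) and 1 passing with DESeq2 (all genes, 0.0194%).

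In the eye cup none of the 10 members passed in any comparison of dox or genotype with edgeR, which does not show that they were unchanged. The SE of the 10 log2 fold changes ran from 0.19 to 0.52 between PRDM13-OE and wildtype eye cups on dox, and from 0.060 to 0.31 in the same comparison of retinas. Between PRDM13-OE and wildtype mice on dox, 0.0184% of genes were called. No member reached an unadjusted p-value under 0.05, and DESeq2 called none. The values were wide: *Asns* was 12.1, 9.02 and 33.2 CPM in PRDM13-OE dox and 37.0, 34.3 and 22.0 in wildtype dox eye cups (log2 fold change -0.69, SE 0.49, adjusted p = 0.643). Leaving out PRDM13-OE dox eye cup 3, the one at the level of wildtype, gave -1.47 (adjusted p = 0.0276), whereas the rod sum as covariate gave 0.13 (adjusted p = 0.994). *Psat1*, lower in the retina, was 79.9, 77.6 and 48.2 against 76.2, 87.5 and 79.9 CPM with an interval of -0.69 to 0.40, and *Shmt2* was 50.4, 39.1 and 53.3 against 46.4, 42.6 and 39.8 CPM with an interval of -0.20 to 0.68. The interval of *Shmt2* includes its retinal fold change of 0.26, while that of *Psat1* ends just short of its retinal -0.71. Whether the effect differed between tissues was not tested.

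With dox in wildtype eye cups 0% of genes were called, and 4 of 10 members reached an unadjusted p-value under 0.05, where 29.9% of all genes did. *Asns* was 37.0, 34.3 and 22.0 CPM with dox and 14.5, 4.17 and 8.41 untreated (log2 fold change 1.71, SE 0.42, adjusted p = 0.0713). *Phgdh* ran the other way, 209, 293 and 400.3 with dox and 535, 585 and 802 untreated (log2 fold change -1.18, SE 0.27, adjusted p = 0.0673). *Atf5* was 57.2, 61.5 and 69.8 and 113, 91.3 and 89.1 CPM (log2 fold change -0.72, SE 0.15, adjusted p = 0.0673), and *Mthfd2* was 8.64, 8.57 and 5.75 and 5.37, 3.39 and 4.23 CPM (log2 fold change 0.74, SE 0.28, adjusted p = 0.132). None of the 4 overlapped between the groups. They were picked by that p-value, and the share of all genes without overlap was not counted. DESeq2 called *Asns* (1.74, adjusted p = 0.00188) and *Phgdh* (-1.17, adjusted p = 0.00179), and *Atf5* passed its adjusted p-value (-0.70, adjusted p = 0.00117). With DESeq2 19.0% of all genes passed and 9.03% were called.

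The make-up of the same eye cups differed. Rod genes summed to 52656, 40516 and 28492 CPM with dox and 27352, 3073 and 13458 untreated, and RPE and pigment genes to 11858, 14651 and 26405 with dox and 34360.0, 42815 and 51857 untreated. Of the 12 eye cups the 4 with the most and the 4 with the least *Asns* were those with the 4 largest and the 4 smallest rod sums. This was not particular to rods. Amacrine genes (8) summed to 1047 to 1349 CPM with dox and 386 to 701 untreated, and ganglion cell genes (8) to 637 to 809 and 95.6 to 363. Over the 12 eye cups the Pearson r of *Asns* was 0.977 with amacrine, 0.931 with ganglion cell and 0.824 with rod sums, as a description. The 4 with the least *Phgdh* had the 4 smallest RPE and pigment sums, and of the 4 with the most *Phgdh* 3 were among the 4 largest. With the rod sum as a covariate over all 12 eye cups, the log2 fold change of *Asns* was 0.46 (adjusted p = 0.958) that of *Phgdh* -0.53 (adjusted p = 0.890) and that of *Atf5* -0.42 (adjusted p = 0.890). Microglial genes (8) also separated these groups, at 226 to 293 CPM with dox against 364 to 469.7 untreated, and their part in the values of *Atf5* was not tested. *Atf4* was 160.3, 147 and 122 CPM with dox and 140.3, 85.7 and 113 untreated, overlapping (log2 fold change 0.27, SE 0.21, adjusted p = 0.419), and *Ddit3* was 30.4, 30.1 and 27.4 and 37.2, 20.5 and 27.8 CPM (log2 fold change -0.035, SE 0.21, adjusted p = 0.928).

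**Figure D4:**
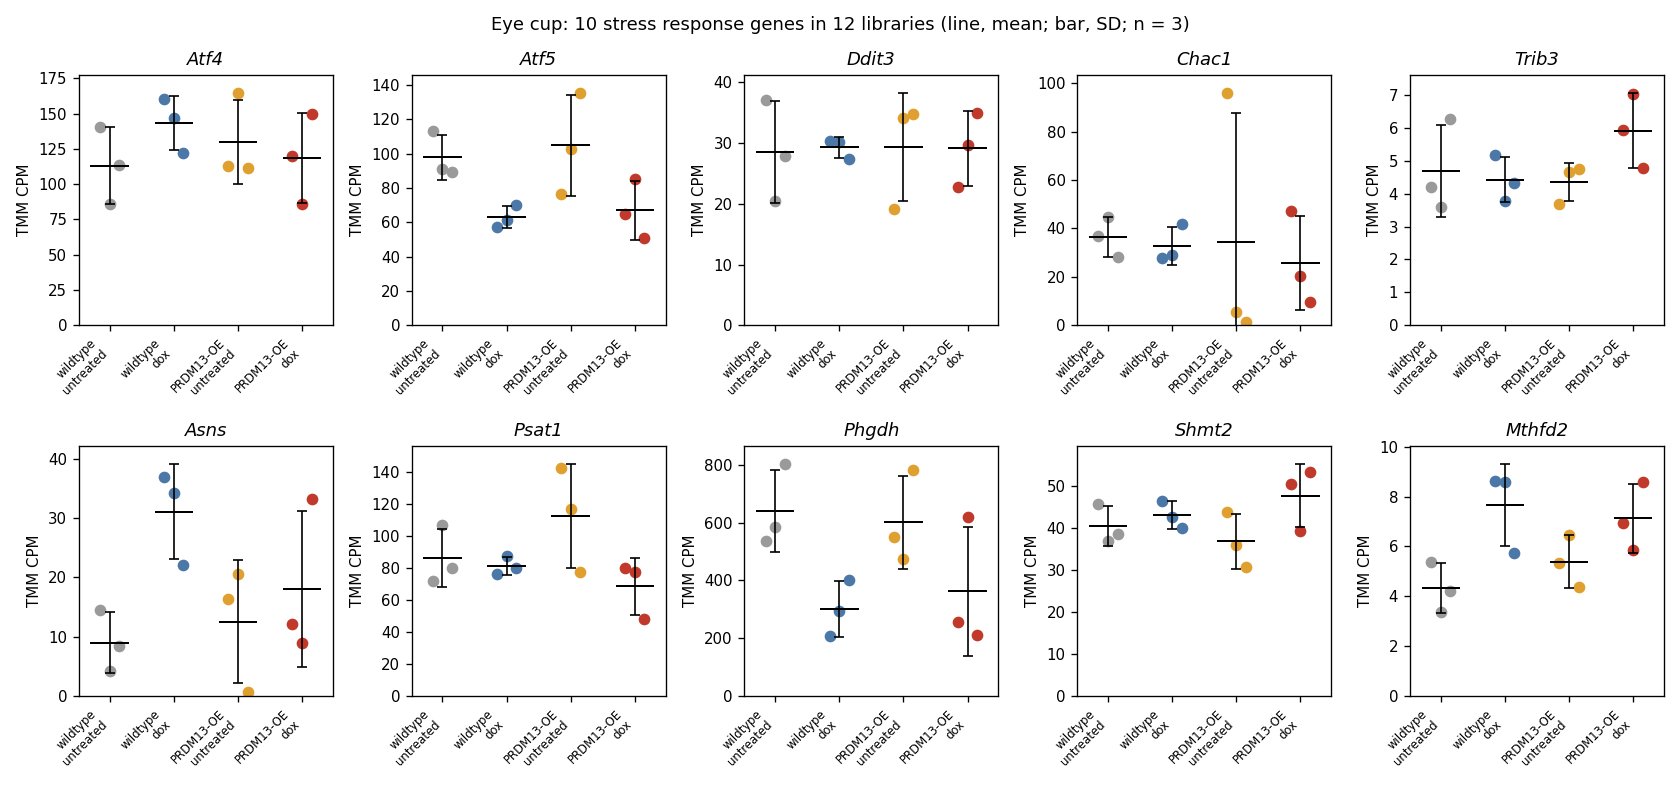
TMM CPM of the 10 genes in the 12 eye cups by group, 1 point a library, with the mean as a line and the SD as a bar (n = 3), drawn down to 0 where it would run below. *Chac1* runs from 1.18 to 95.8 CPM, both within untreated PRDM13-OE eye cups.

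Within PRDM13-OE eye cups the share of genes called with dox was 0.0139%, and 1 member, *Psat1*, had an unadjusted p-value under 0.05. It was 79.9, 77.6 and 48.2 CPM with dox and 143, 117 and 77.8 untreated (log2 fold change -0.70, SE 0.29, adjusted p = 0.975). Untreated carriers against untreated wildtype gave 0% of genes called and no member under an unadjusted 0.05. *Chac1* stood at 95.8, 5.65 and 1.18 CPM in untreated PRDM13-OE eye cups 1, 2 and 3, against 36.8, 44.6 and 28.04 in untreated wildtype and 47.2, 20.5 and 9.73 in PRDM13-OE dox eye cups. Its interval within PRDM13-OE mice, -3.54 to 2.75, is the widest of the 10 in that comparison. In the same 3 untreated eye cups *Asns* was 16.4, 20.5 and 0.748 CPM, lowest in the library where *Chac1* was lowest. The interaction called 0% of genes in the eye cup, and no member reached an unadjusted p-value under 0.05. DESeq2 called no member in these 3 comparisons.

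Of the pathway lists no gene passed in the eye cup with edgeR in any of these 5 comparisons, but the count depended on the tool for dox in wildtype mice. There 0 of 102 passed with edgeR, with 38 at an unadjusted p-value under 0.05 (all genes, 29.9%) and 23 passing with DESeq2 (all genes, 19.0%). The 13 mitochondrially encoded mRNAs made up the largest share of the pathway genes passing with DESeq2, with 9, each lower with dox. Their sum was 44306, 37726 and 56012 CPM with dox and 120733, 73902 and 89797 untreated, without overlap, in eye cups that also differed in rod and RPE sums as given above. The list median was -1.08 on the log2 scale with edgeR, against -0.046 over all genes. For PRDM13-OE against wildtype on dox, 0 of 103 passed, with 11 at an unadjusted p-value under 0.05 (all genes, 8.24%) and 1 passing with DESeq2 (all genes, 0.676%). Within PRDM13-OE mice 0 of 103 passed, with 3 at an unadjusted p-value under 0.05 (all genes, 4.14%) and 0 passing with DESeq2 (all genes, 0.273%). Untreated carriers gave 0 of 102, with 2 at an unadjusted p-value under 0.05 (all genes, 1.87%) and 0 passing with DESeq2 (all genes, 0.0139%), and the interaction gave 0 of 103, with 4 at an unadjusted p-value under 0.05 (all genes, 6.40%) and 0 passing with DESeq2 (all genes, 0.134%).

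**Figure D5:**
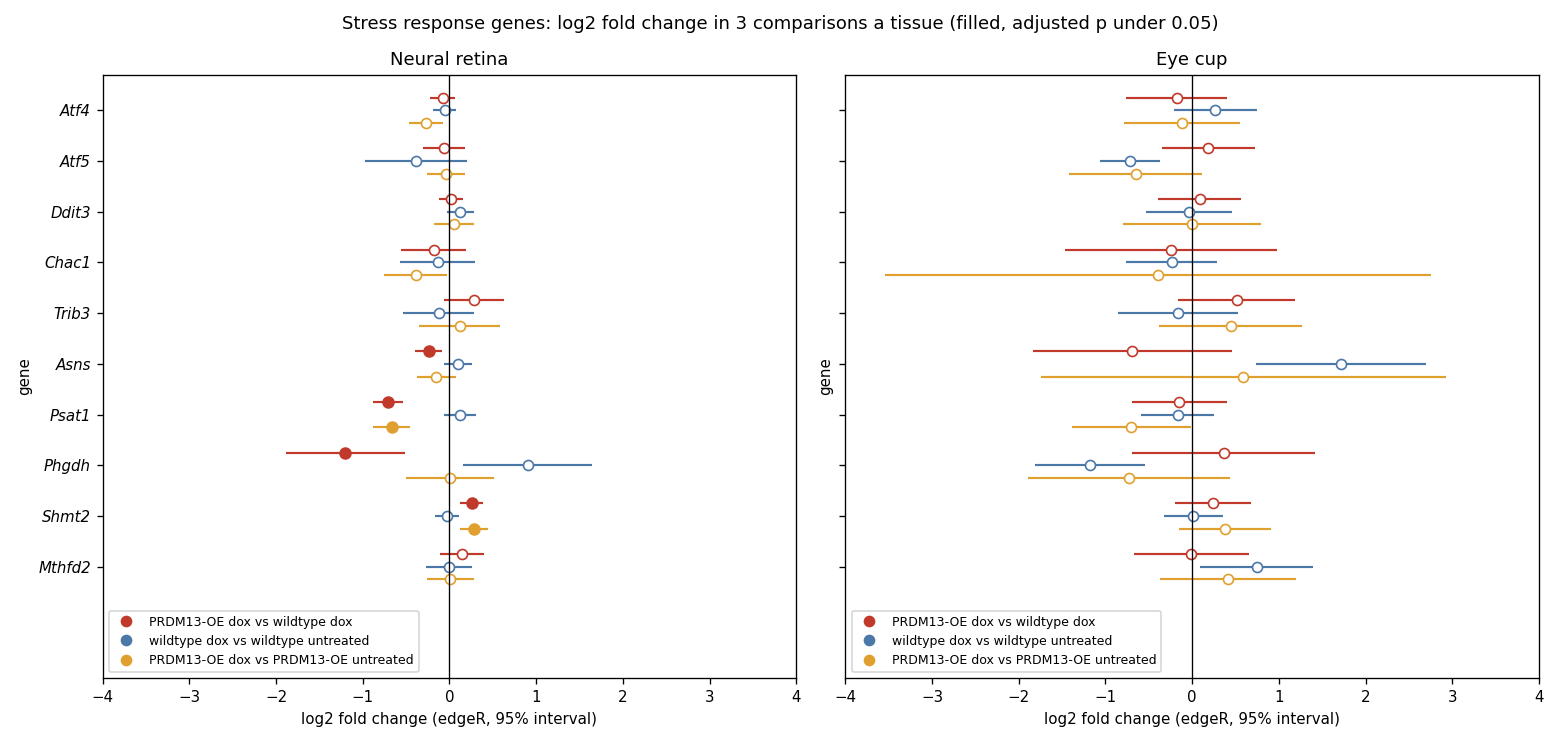
Log2 fold change of the 10 genes with 95% intervals (edgeR) in 3 comparisons each of neural retina and eye cup, with filled points where the adjusted p-value was under 0.05. Filled points appear only in the retina, for *Asns*, *Psat1*, *Phgdh* and *Shmt2*, and most intervals are wider in the eye cup.

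Untreated wildtype retina and eye cup of the same 3 mice show where these genes are expressed at rest. The members passed in 7 of 10 cases, 3 higher and 4 lower in the retina, where 61.5% of genes passed, and 4 were called past the fold cutoff, against 45.2%. *Asns* (2.46, SE 0.37, adjusted p = 0.000884), *Mthfd2* (0.90, SE 0.21, adjusted p = 0.00818) and *Atf4* (0.85, SE 0.17, adjusted p = 0.00367) were higher in the retina. *Phgdh* was far higher in the eye cup, 535, 585 and 802 against 16.1, 13.6 and 8.80 CPM, at -5.71 (SE 0.31, adjusted p = 8.77e-06). *Chac1* was 36.8, 44.6 and 28.04 CPM in eye cups and 5.93, 4.15 and 6.21 in retinas, at -2.81 (SE 0.25, adjusted p = 6.84e-05). *Atf5* (-1.55, SE 0.34, adjusted p = 0.00537) and *Psat1* (-0.84, SE 0.18, adjusted p = 0.00481) were also lower in the retina. *Ddit3* (interval -0.31 to 0.62), *Trib3* (-0.70 to 0.65) and *Shmt2* (-0.15 to 0.38) did not pass. With the mouse as a block the same 7 passed.

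Of the 104 pathway genes, 102 were tested between the tissues, and 20 passed as higher and 50 as lower in the retina (68.6%, against 61.5% of all genes). Over all genes 29.0% passed as higher and 32.5% as lower in the retina. Of 12 tRNA synthetases 8 passed as higher and none as lower, and *Iars1* (1.05) was the 1 called. Of 12 endoplasmic reticulum chaperones 9 passed as lower in the retina and none as higher, with *Sdf2l1* (-2.13), *Manf* (-1.41), *Calr* (-1.16) and *Pdia4* (-1.05) called. Of 13 mitochondrially encoded mRNAs 12 passed as lower, most of all *mt-Atp6* (-3.36), *mt-Co3* (-3.24), *mt-Nd6* (-2.79) and *mt-Nd4* (-2.65). The largest falls among transporters were *Slc43a1* (-4.66), *Slc1a5* (-1.94), *Slc3a2* (-1.65) and *Slc7a11* (-1.02), and among serine and one-carbon neighbours *Shmt1* (-2.82), *Gldc* (-2.23), *Tyms* (-2.05) and *Aldh1l1* (-1.43). Among ATF4 targets *Eif4ebp1* (-3.78), *Nupr1* (-2.98), *Cebpb* (-2.86) and *Jdp2* (-2.06) led, and among eIF2 kinases and phosphatases *Eif2ak2* (-2.07) and *Ppp1r15a* (-1.23). In either direction 5 of 10 transporters, 8 of 12 serine and one-carbon neighbours, 13 of 17 ATF4 targets and 9 of 14 eIF2 genes passed. Over all lists 3 genes were called as higher and 33 as lower in the retina.

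Counts of some members may include reads of neighbours. On GRCm39, *Ddit3* (chr10:127126643-127132157, plus strand) meets the end of *Mars1* and the start of *Gm4189*, both on the other strand. The second entry of *Ddit3* (chr10:127126698-127129622), at 0 counts in all 24 libraries, lies wholly inside the first on the same strand. *Atf5* (chr7:44461680-44466082, minus) overlaps *Nup62* and *Il4i1*, *Shmt2* (chr10:127352992-127358313, minus) meets *Ndufa4l2* and *Psat1* holds the pseudogene *Gm3329*, all on the opposite strand. *Mthfd2* (chr6:83282673-83302890, minus) overlaps *Gm43890* on its own strand. *Atf4* (chr15:80139385-80141742, plus), *Chac1* (chr2:119181710-119184862, plus), *Trib3* (chr2:152179342-152185952, minus) and *Asns* (chr6:7675169-7693254, minus) overlap no other gene of the deposited table at its coordinates, nor does *Phgdh*, which has a processed pseudogene elsewhere, *Phgdh-ps1*. GENCODE vM39 gives wider spans for some of these genes, and overlaps in that annotation were not searched. Whether counting used strand is not given in the sources used here.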

How the data were processed

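Poly-A selected RNA of 12 neural retinas and 12 eye cups was sequenced. The submitters' processing notes name CASAVA and HISAT2, with no version, and GRCm39. The counting tool, its strand setting and the annotation release are not given in the sources used here. The authors deposited read counts per gene without normalization, which entered every test, and FPKM, which the authors derived from counts and gene length and which set levels between genes here. The deposited means, fold changes and p-values of the authors' own comparisons were not used.

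The members and gene lists were chosen with earlier results of these data known. A gene entered a test where its compared libraries held 10 or more counts in all. The quasi-likelihood test of edgeR 4.0.16 (R 4.3.3) was run with TMM factors and no robust option, on the 6 libraries of the groups compared, or all 12 of a tissue for the interaction. P-values were adjusted by Benjamini-Hochberg over all genes tested. A gene passed at an adjusted p-value under 0.05 and was called with a log2 fold change past 1 as well. SE is the fold change over the root of F, and intervals are at 95%. CPM used TMM factors over all 24 libraries. Of the pathway lists, called genes were named, at most 4 a list and comparison. Other genes of the lists were named after their values were seen. Marker lists were summed as CPM. *Phgdh*, as the member called in a retina comparison, has its 3 most alike genes named.

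Alternatives were DESeq2 1.42.0, library size or DESeq2 size factors in place of TMM, no filter, filterByExpr, all 12 libraries of a tissue in 1 fit, robust fitting, no fold cutoff, a replicate block, a lens crystallin covariate in retinas, a rod covariate in eye cups and leaving out each library. Leaving out wildtype dox retinas 1 and 2 together, and every lens check of the pathway lists, was chosen after seeing the data. Retina and eye cup of a mouse share its number, as the study's methods take both from each mouse. In the untreated wildtype mice, the only ones checked for this, their deviations correlated by 0.108 to 0.132. Within a tissue, groups share only numbers. Total counts per library were 15825059 to 24908314, and no 2 libraries were copies. Figures used matplotlib 3.10.9.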

Additional observations from a re-analysis of the deposited data

Results flagged for a closer look

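*Psat1* in the retina was singled out because the effect of dox differed between genotypes by a test of the difference itself. The genotype by dox interaction was -0.79 (SE 0.14, adjusted p = 0.00244) on the log2 scale with edgeR. Dox went with -0.66 in PRDM13-OE retinas and 0.13 in wildtype retinas. The 3 PRDM13-OE dox retinas were the lowest of the 12. In the eye cup the interaction was -0.51 (SE 0.38, adjusted p = 0.774). With 3 libraries a group, no library was tested as standing apart.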

How the results depend on the processing

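In the retina on dox, PRDM13-OE against wildtype, the 1 called member became 4 with no fold cutoff and 0 with DESeq2, with a robust fit, with the crystallin covariate and without the lens-rich retinas, and ranged from 0 to 1 on leaving out single libraries (0 without PRDM13-OE dox retina 1, 2 or 3 or wildtype dox retina 2). *Phgdh* turned to 0.18 (adjusted p = 0.908) with the crystallin covariate there, and to -0.072 (adjusted p = 0.998) for dox in wildtype retinas without the lens-rich ones. *Psat1* kept its direction and passed in 15 of 16 alternatives against wildtype dox, 15 of 15 within PRDM13-OE mice and 20 of 20 for the interaction. *Asns* passed in 7 of 16 and *Shmt2* in 13 of 16 against wildtype dox. With no fold cutoff, 2 members passed within PRDM13-OE retinas, 1 in the retinal interaction and 7 between the tissues. *Atf5* in retinas ranged from -0.62 to 0.13 for dox in wildtype and -0.63 to 0.12 for untreated carriers on leaving out single libraries, positive only without untreated wildtype retina 1. In eye cups on dox, leaving out single libraries gave 0 to 1 called members (1 without PRDM13-OE dox eye cup 3), and *Asns* was 0.13 (adjusted p = 0.994) with the rod covariate. For dox in wildtype eye cups, 2 members were called with DESeq2, 1 with library size alone, 2 with no filter, and 0 to 2 on leaving out single libraries (1 without wildtype dox 3, 2 without untreated wildtype 1). Without a filter, *Phgdh* and *Atf5* passed for dox in wildtype retinas, and the cause was not tested. Library size alone moved the median of all genes from -0.046 to 0.13 in that eye cup comparison and from -0.055 to 0.24 between tissues. The replicate block, on mouse numbers that within a tissue are only shared, took *Shmt2* within PRDM13-OE retinas to 0.29 (adjusted p = 0.0807) and changed no other call. Of 85 member values that passed in no fit, 53 changed sign in some alternative.

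Each group held 3 libraries, and eye cup libraries differed widely in rod and RPE RNA. Counts measure transcripts, and neither ATF4 protein nor eIF2α phosphorylation was measured. In retinas *Trib3*, *Chac1* and *Mthfd2* rested on 58 to 201 counts a library.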
